A study of Rattus norvegicus with 20 samples.

Results

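The circadian clock genes were followed as 16 probes of 10 genes, Per1, Per2, Per3, Cry1, Cry2, Bmal1 (also called Arntl), Clock, Nr1d1, Nr1d2 and Dbp, out of 35129 probes and 12199 gene symbols on the array. A probe was taken where the platform's annotation gave it exactly 1 symbol and that symbol was a member, and 5 of the genes (Per2, Cry2, Bmal1, Clock and Nr1d2) had more than 1 probe. Gene expression was measured in mesenteric arteries, vessels that carry blood to the gut, with 1 single-colour CodeLink array for each of 20 female Sprague Dawley rats. All rats, the controls included, lost their ovaries at 4 weeks of age and, after 2 weeks of recovery, received a gavage every day for 3 weeks, which put the arteries at an age of 9 weeks. The vehicle group (20% 2-hydroxypropyl-β-cyclodextrin) had 4 rats. A dose of 0.15 mg/kg was used for each estrogen, with 3 rats given ethinyl estradiol, 3 given equilin and 3 given estradiol benzoate. The groups given the selective estrogen receptor modulators (SERMs) tamoxifen and raloxifene, each at 3 mg/kg, had 4 and 3 rats. Ovariectomy before the first ovarian cycles removes the main source of estrogen, so the vehicle rats stand for an artery without ovarian hormones. The labels do not give the time of day at which tissue was taken, and clock transcripts are known to vary with it.

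The mammalian clock is a feedback loop that nearly every cell carries, vascular smooth muscle and endothelium among them. BMAL1 and CLOCK bind DNA together and switch on the Per and Cry genes, whose proteins return to the nucleus and hold BMAL1 and CLOCK back. The nuclear receptors encoded by Nr1d1 and Nr1d2 (REV-ERB alpha and beta) are switched on by the same pair and repress Bmal1, and Dbp encodes a transcription factor whose output rhythm runs opposite to that of Bmal1 in rodent tissues.

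The start regions of the members were searched for the elements through which this loop is known to act, and the stretches that hold a match are shown because they name the clock inputs that each gene could carry. RefSeq windows of 300 bases (250 before and 50 after the annotated start, build GRCr8) were at hand for 9 of the 10 genes, Cry1 being the exception, with 2 windows each for Clock and Nr1d1. The E-box CACGTG, bound by BMAL1 with CLOCK, was present on either strand in 6.42% of all 33469 windows, and its variant CACGTT in 4.83%. The D-box TTANGTAA, bound by DBP, was present in 2.24%, and the nuclear receptor core AGGTCA, part of the element bound by the REV-ERB and ROR receptors, in 16.2%. These motifs do not overlap each other in the matches below. Capitals mark the match, AACGTG being CACGTT read on the other strand, and each sequence runs 5′ to 3′ on the strand of its gene.
Per2 E-box variant, position -62, chr9:99497038-99497067, minus strand: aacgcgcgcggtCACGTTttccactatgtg
Per2 D-box, position -192, chr9:99497167-99497196, minus strand: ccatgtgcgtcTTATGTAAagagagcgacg
Cry2 E-box variant, position -212, chr3:98860632-98860661, minus strand: acacatggtgggAACGTGagggggcggggc
Bmal1 receptor core, position -15, chr1:176766301-176766330, plus strand: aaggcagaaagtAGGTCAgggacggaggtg
Nr1d1 E-box, second window, position -191, chr10:84229628-84229657, minus strand: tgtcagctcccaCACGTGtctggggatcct
Nr1d1 E-box variant, first window, position -174, chr10:84231969-84231998, minus strand: cgcatagagctcAACGTGcccgctgctgga
Nr1d2 receptor core, position -187, chr15:9954835-9954864, plus strand: gattggaaggagAGGTCAggaacgcgcata
No match to these letters lay in the windows of Per1, Per3, Clock and Dbp. A match is a match of letters only, and binding was not measured.

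A gap in the medians of the deposited intensities divides the arrays into 2 sets, for which no label gives a reason. The 10 arrays of set A (lowest median 1.0408) are the 9 estrogen arrays and vehicle array 1. The 10 of set B (highest median 1.015) are the 7 SERM arrays and vehicle arrays 2 to 4. A difference between estrogens and vehicle therefore cannot be told apart from a difference between the sets, except through vehicle array 1. The least typical array was raloxifene 3, whose correlation with the other arrays averaged 0.841, while the remaining arrays averaged 0.919 to 0.959. The raloxifene changes of Per3, Cry2, Nr1d2 and Dbp and the agreement of the Bmal1 and Nr1d2 probes are given with and without it. Results of the cell type markers and correlations within set B are given only with it. Values below are the deposited linear intensities, and changes are differences of mean log2 intensity, tested with limma over all 24562 tested probes with Benjamini-Hochberg adjustment. A probe is said to have risen or fallen where the adjusted p was under 0.05. Of the 16 clock probes 13 were tested. The second probes of Per2 and Cry2 and the third of Nr1d2 were among the dimmest 30% and were not tested. Their highest readings over the 20 arrays were 0.508, 0.542 and 0.471.

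In comparisons with vehicle, 2 clock genes fell and none rose, both with equilin: Cry1, which encodes a main repressor of the loop, and Per2, which encodes its partner. In bulk tissue, fewer cells of a type and less RNA per cell cannot be told apart. Equilin lowered or raised 3.69% of all tested probes and 2 of the 13 clock probes. None of the 13 passed with ethinyl estradiol (background 1.2%), estradiol benzoate (0.7%), tamoxifen (0.224%) or raloxifene (2.04%). At an unadjusted p under 0.05 the counts were 3 of 13 for ethinyl estradiol, 2 for estradiol benzoate, 4 for equilin, 3 for tamoxifen and 4 for raloxifene, where 13.9%, 7.69%, 21.4%, 8.97% and 27.6% of all tested probes passed that level. The median log2 change of the clock probes was -0.30 with equilin against -0.17 over all probes, and 0.17 with raloxifene against -0.02. With the array set as a block no clock probe passed in any comparison, where 0% to 0.68% of all tested probes passed. That fit sets the estrogen arrays against vehicle array 1 alone and the SERM arrays against vehicle arrays 2 to 4. Because all 5 comparisons share the same vehicle arrays, they are not independent of each other. Where a group is said below to lie wholly above or below vehicle, this describes the readings and is not a test. With 3 or 4 arrays in a group such separation can arise by chance, and the share of all probes that show it is not given.

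**Figure D1:**
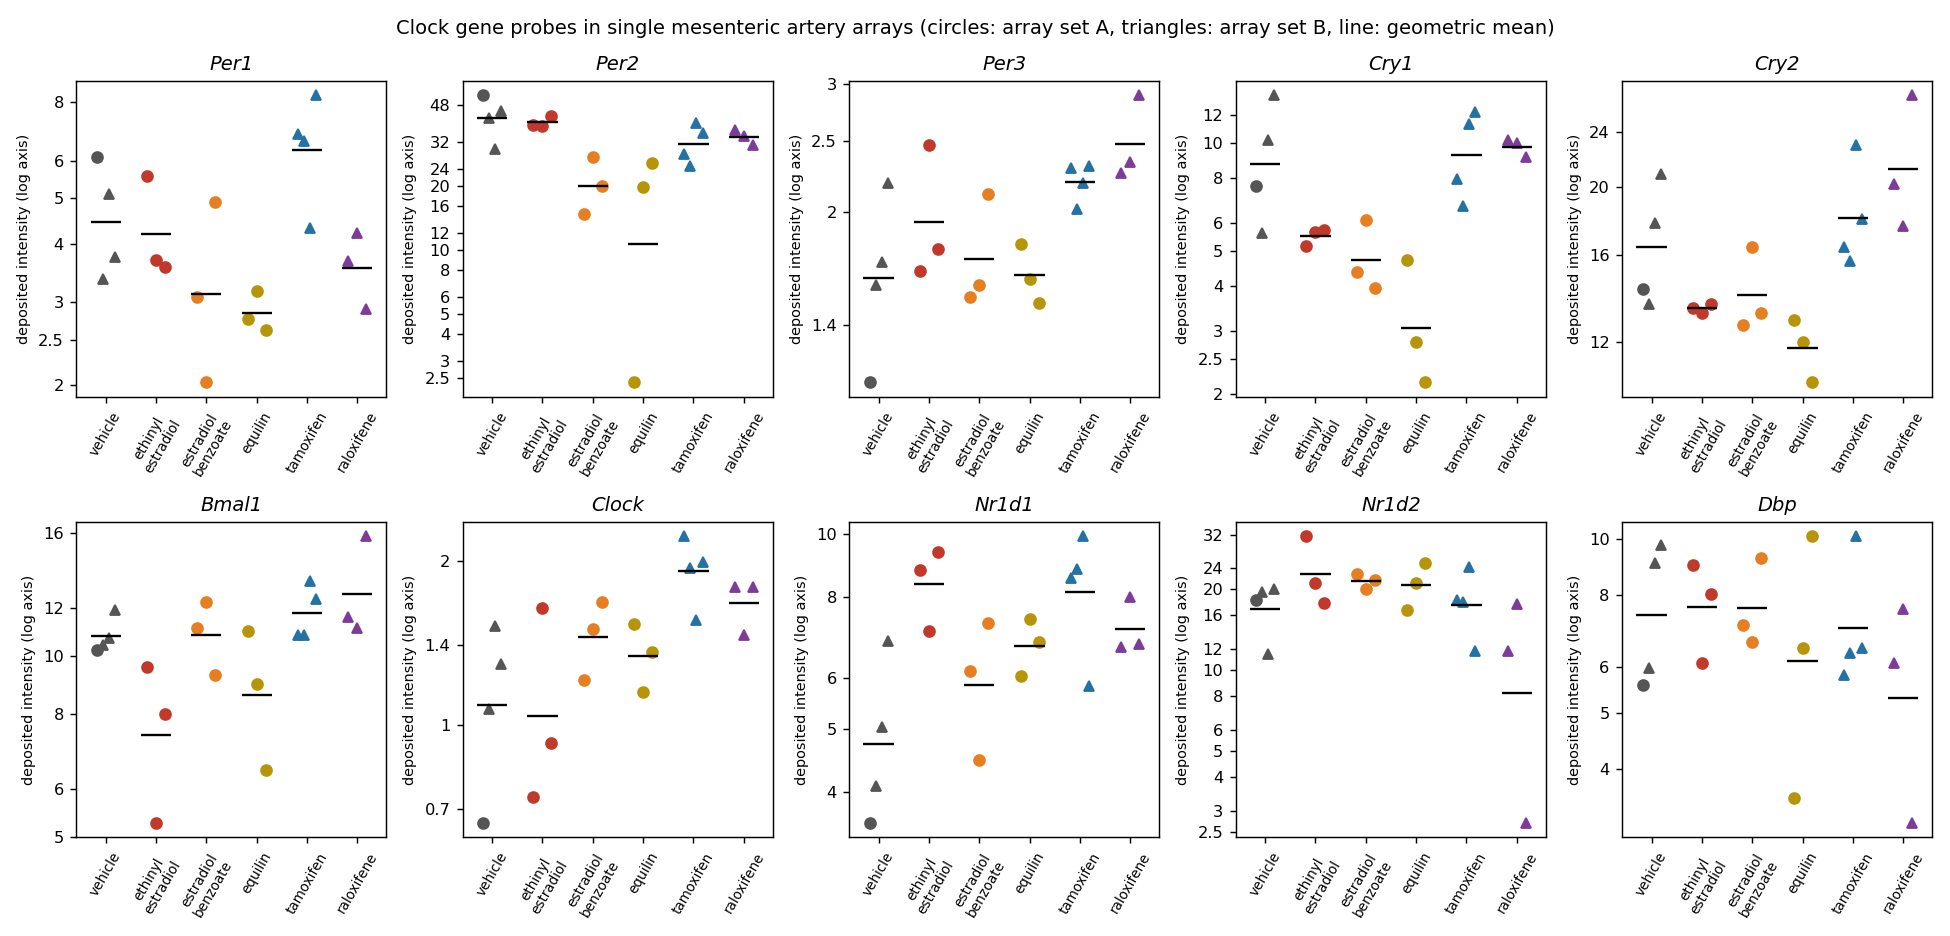
Deposited intensity (log axis, a scale of its own in each panel) of the brightest probe of each clock gene in all 20 arrays, by treatment group; circles are arrays of set A, triangles arrays of set B, and the line is the geometric mean of the group. The equilin arrays of Cry1 all lie below the vehicle arrays, and 1 equilin array of Per2 lies at 2.38, far below the rest.

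Of the activating limb, Bmal1 did not pass in any comparison. Its brighter probe read 10.2, 10.4, 10.7 and 11.9 in the vehicle arrays, 9.58, 5.27 and 7.99 with ethinyl estradiol, 11.1, 12.3 and 9.28 with estradiol benzoate and 11, 8.98 and 6.45 with equilin. It read 10.8, 10.8, 13.3 and 12.4 with tamoxifen and 11.6, 11.1 and 15.8 with raloxifene. All 3 ethinyl estradiol arrays lay below the lowest vehicle array, while the other groups overlapped vehicle. The log2 change with ethinyl estradiol was -0.58 (95% confidence interval -1.02 to -0.13, limma adjusted p = 0.221). The second Bmal1 probe had a change of -0.36 there, with an interval from -1.29 to 0.57.

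Both Bmal1 probes followed each other in set A and not in set B, where they lay farthest apart in raloxifene array 3. In tamoxifen array 4, also of set B, the brighter probe read 12.4 and the second 2.63, its lowest there after raloxifene array 3. Over 20 arrays their readings had a Pearson r of 0.07 (permutation p = 0.753) and a Spearman rho of 0.34 (p = 0.142). Without raloxifene array 3, where the brighter probe was at its highest, 15.8, and the second at its lowest, 0.766, r was 0.72 over 19 arrays (permutation p = 0.0013), a comparison made after the values were seen. Within set A r was 0.86 and within set B, which holds raloxifene array 3, it was -0.78. Leaving out the 2 arrays farthest from the median of the brighter probe, ethinyl estradiol 2 and equilin 3, gave -0.40, so the pooled value rests on few arrays.

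Clock, the partner of Bmal1, gave higher readings with both SERMs without passing. Its brighter probe read 0.66, 1.07, 1.52 and 1.29 in vehicle, 2.22, 1.94, 1.56 and 1.99 with tamoxifen and 1.79, 1.46 and 1.79 with raloxifene. Every tamoxifen array lay above every vehicle array, and 1 raloxifene array lay within the vehicle range. The log2 change was 0.76 ± 0.24 (SE) with tamoxifen (limma adjusted p = 0.319) and 0.59 ± 0.26 with raloxifene (adjusted p = 0.153), and 0.67 for the mean of both (adjusted p = 0.114). The lowest vehicle reading was that of array 1, the set A array, and against the set B vehicle arrays alone the mean of both SERMs was 0.45 (adjusted p = 0.349). The dimmer Clock probe, in the same transcript, had changes of 0.01 with tamoxifen and 0.42 with raloxifene, and its readings were unrelated to those of the brighter probe (r = 0.00 over 20 arrays, permutation p = 0.989). With the estrogens the brighter probe read 0.738, 1.64 and 0.925 (ethinyl estradiol), 1.21, 1.5 and 1.68 (estradiol benzoate) and 1.53, 1.15 and 1.36 (equilin), all overlapping vehicle. Within set A, the single vehicle array, at 0.66, lay below all of these estrogen arrays. With the array set as a block the change of the estrogen mean was 0.84, which rests on that 1 vehicle array.

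**Figure D2:**
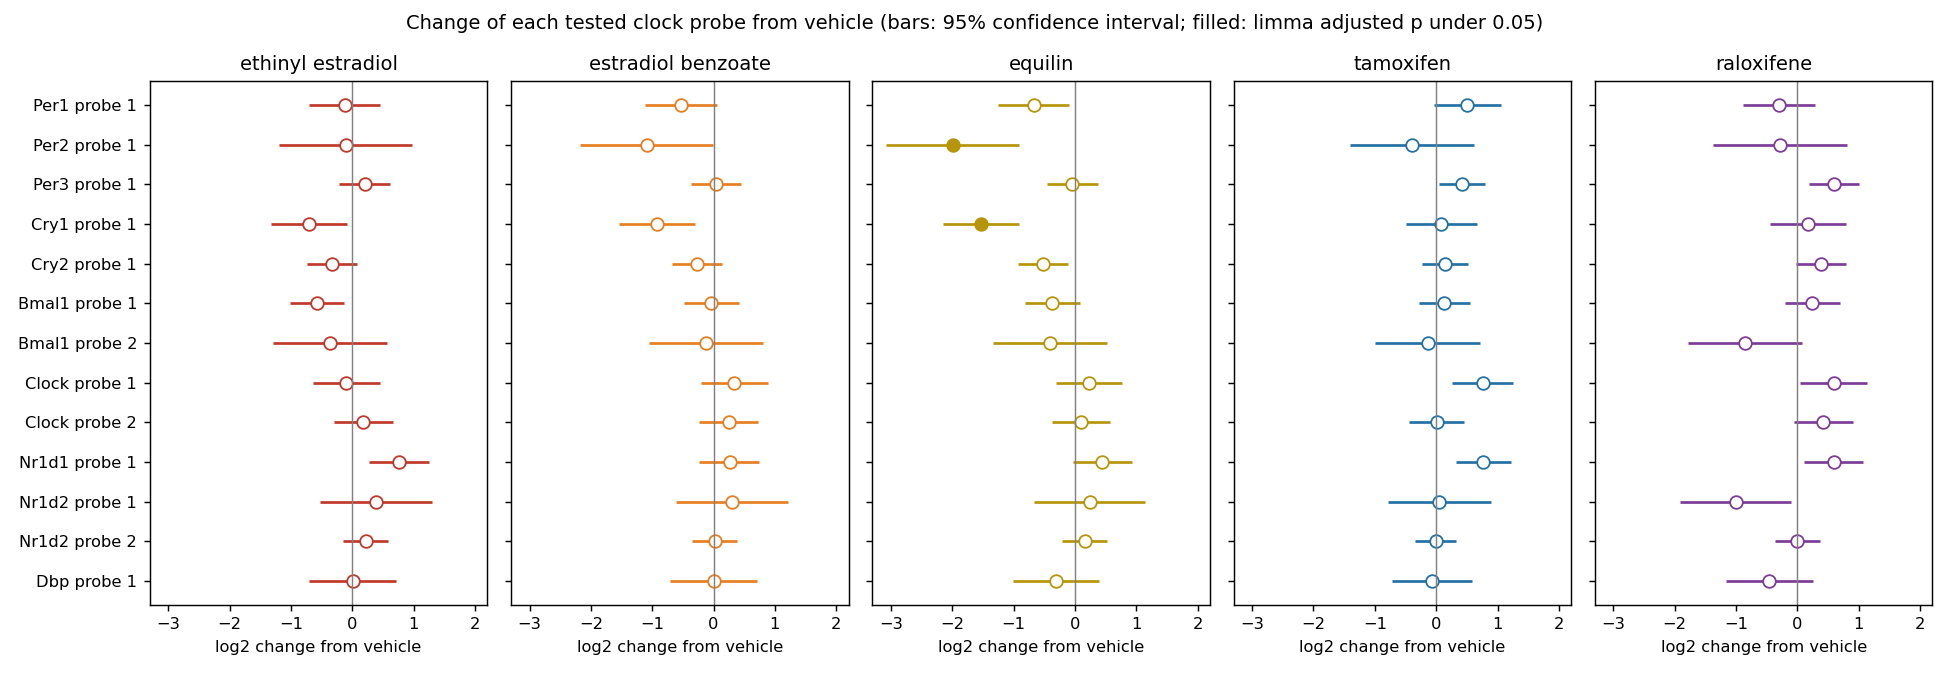
Log2 change from vehicle (x axis) of each of the 13 tested clock probes (y axis) for the 5 compounds; points are limma estimates, bars their 95% confidence intervals, and filled points have an adjusted p under 0.05. Only Per2 and Cry1 with equilin are filled, at -1.99 and -1.53.

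Per1, a rapidly induced repressor that also answers to stress hormones, read 6.10, 3.36, 5.09 and 3.74 in vehicle. It read 2.76, 3.18 and 2.62 with equilin, all below the lowest vehicle array, and 6.83, 6.61, 4.31 and 8.26 with tamoxifen, where 3 of 4 arrays lay above the highest vehicle array. The changes were -0.67 (95% confidence interval -1.26 to -0.09, limma adjusted p = 0.173) with equilin and 0.51 (-0.04 to 1.05, adjusted p = 0.584) with tamoxifen, and neither passed. Ethinyl estradiol (5.57, 3.69 and 3.57), estradiol benzoate (3.08, 2.03 and 4.90) and raloxifene (3.67, 4.21 and 2.91) overlapped vehicle.

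Per2, the period gene whose loss shortens or abolishes rhythms in mice, fell with equilin. Its brighter probe read 53.2, 41.8, 29.9 and 45.0 in vehicle and 2.38, 19.7 and 25.5 with equilin, and the estradiol benzoate arrays were also low at 14.8, 27.2 and 20.0. Both of these groups lay wholly below vehicle, whereas ethinyl estradiol (38.6, 38.2 and 42.7), tamoxifen (28.3, 24.8, 39.6 and 35.4) and raloxifene (36.7, 34.1 and 31.0) overlapped it. Mean intensity was 42.5 ± 9.70 (SD, n = 4) in vehicle and 15.9 ± 12 (SD, n = 3) with equilin. The log2 change with equilin was -1.99 ± 0.52 (SE, limma adjusted p = 0.0394), and with estradiol benzoate it was -1.09 (95% confidence interval -2.18 to -0.01, adjusted p = 0.643), which did not pass.

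The size of the Per2 change with equilin was set by equilin array 1. Without that array it was -0.94 (limma adjusted p = 0.0556), and it did not pass in 9 of the 20 fits that each left out an array. It was -1.70 after quantile normalisation (adjusted p = 0.102) and -2.31 with the array set as a block (adjusted p = 0.335). In equilin array 1 the Per2 probe was 3.83 below the median of the other arrays on the log2 scale (a difference of -3.83), and 4 of 13252 other named probes, or 0.0302%, lay as far below theirs in that array. The dim second Per2 probe, which was not tested, read 0.172 there, within its range of 0.0379 to 0.508.

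Per3, the least required of the period genes in mice, read 1.17, 1.59, 1.71 and 2.19 in vehicle, 2.30, 2.02, 2.19 and 2.31 with tamoxifen and 2.26, 2.34 and 2.89 with raloxifene. All raloxifene arrays and 2 of the tamoxifen arrays lay above the highest vehicle array. The log2 change was 0.59 (95% confidence interval 0.18 to 1.0, limma adjusted p = 0.0843) with raloxifene, 0.48 without raloxifene array 3 (adjusted p = 0.351), and 0.42 with tamoxifen (adjusted p = 0.514). The estrogen arrays ran from 1.5 to 2.47 and overlapped vehicle in all 3 groups. Within set A, the single vehicle array, at 1.17, lay below all of these estrogen arrays. With the array set as a block the change of the estrogen mean was 0.55, which rests on that 1 vehicle array.

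Cry1, a cryptochrome and a strong repressor of BMAL1 with CLOCK, had the smallest p of the clock genes. It read 7.59, 5.61, 10.2 and 13.6 in vehicle and 4.74, 2.79 and 2.16 with equilin, 5.17, 5.65 and 5.74 with ethinyl estradiol and 4.38, 6.12 and 3.95 with estradiol benzoate. It read 7.95, 6.68, 11.3 and 12.2 with tamoxifen and 10.2, 10 and 9.15 with raloxifene. The equilin arrays lay wholly below vehicle, the other estrogens overlapped only its lowest array, and both SERMs lay within the vehicle range.

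Mean Cry1 intensity was 9.25 ± 3.46 (SD, n = 4) in vehicle and 3.23 ± 1.35 (SD, n = 3) with equilin, a log2 change of -1.53 ± 0.29 (SE, limma adjusted p = 0.0138). The mean of the 3 estrogens was lower by -1.05 ± 0.23 (adjusted p = 0.0168), the only clock probe that passed there, where 2.61% of all tested probes passed. The F-test of any difference from vehicle gave an adjusted p of 0.00571 for Cry1. Within set A, the single vehicle array, at 7.59, lay above all 9 estrogen arrays, which ran from 2.16 to 6.12. With the array set as a block the equilin change was -1.29 (adjusted p = 0.349) and that of the estrogen mean -0.81 (adjusted p = 0.858). The equilin call was lost without vehicle array 3, equilin array 2 or equilin array 3 (adjusted p = 0.0524, 0.0998 and 0.0859), and that of the estrogen mean without vehicle array 3 or 4 (0.0901 and 0.0943).

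Cry2, the other cryptochrome, read 14.3, 13.6, 17.8 and 20.9 in vehicle and 12.9, 12 and 10.5 with equilin, 13.4, 13.2 and 13.6 with ethinyl estradiol and 12.7, 16.4 and 13.2 with estradiol benzoate. It read 16.4, 15.7, 23.0 and 18 with tamoxifen and 20.2, 17.6 and 27.1 with raloxifene. The equilin arrays all lay below vehicle, and the highest reading was that of raloxifene array 3. The F-test passed (adjusted p = 0.0424), but no single compound did: the change was -0.52 with equilin (adjusted p = 0.133) and 0.38 with raloxifene (adjusted p = 0.202), the latter 0.21 without raloxifene array 3. The F-test call was lost in 14 of the 20 fits that each left out an array (adjusted p from 0.0303 to 0.117) and with the array set as a block (adjusted p = 0.725).

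Over all 13 clock probes the F-test passed for 2, Cry1 and Cry2, against 8.84% of all tested probes. At an unadjusted p under 0.05 it passed for 8 of 13, against 27.6% of all tested probes. The mean of the SERMs passed for none of the clock probes, where 0.574% of all probes passed; at an unadjusted p under 0.05 it passed for 3 of the 13, against 20.4% of all tested probes.

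Nr1d1, the REV-ERB receptor that represses Bmal1, was lowest in vehicle. It read 3.59, 4.09, 5.04 and 6.83 in vehicle, 8.79, 7.08 and 9.38 with ethinyl estradiol, 6.14, 4.48 and 7.30 with estradiol benzoate and 6.04, 7.40 and 6.82 with equilin. It read 8.54, 8.83, 9.92 and 5.83 with tamoxifen and 6.69, 8.0 and 6.77 with raloxifene. The ethinyl estradiol arrays lay wholly above vehicle, and every other group overlapped vehicle. The log2 change was positive for all 5 compounds and passed for none: 0.77 with ethinyl estradiol (limma adjusted p = 0.116), 0.77 with tamoxifen (0.222), 0.59 with raloxifene (0.118), 0.45 with equilin (0.265) and 0.26 with estradiol benzoate (0.871). The mean of the SERMs was 0.68 (95% confidence interval 0.28 to 1.08, adjusted p = 0.0845). All 5 comparisons rest on the same vehicle arrays, of which vehicle arrays 1 and 2 read below every treated array.

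Nr1d2, the related receptor, had 2 tested probes that did not move together. The brighter read 18.3, 19.5, 11.5 and 20.0 in vehicle, 31.6, 21.2 and 17.8 with ethinyl estradiol, 22.9, 20.1 and 21.6 with estradiol benzoate and 16.8, 21.1 and 25.1 with equilin. It read 18.3, 18, 24.2 and 11.8 with tamoxifen and 11.8, 17.7 and 2.70 with raloxifene. Only the estradiol benzoate arrays lay wholly above vehicle, and raloxifene array 3 gave by far the lowest reading. The change with raloxifene was -1.01 (limma adjusted p = 0.146), and without raloxifene array 3 it was -0.22 (adjusted p = 0.80). The second probe read its highest, 11.5, in that same array, against 6.26 to 10.8 elsewhere, and its changes lay between -0.01 and 0.22 for the 5 compounds. Over 20 arrays the probes had an r of -0.29 (permutation p = 0.199), and 0.37 without raloxifene array 3 (permutation p = 0.115).

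**Figure D3:**
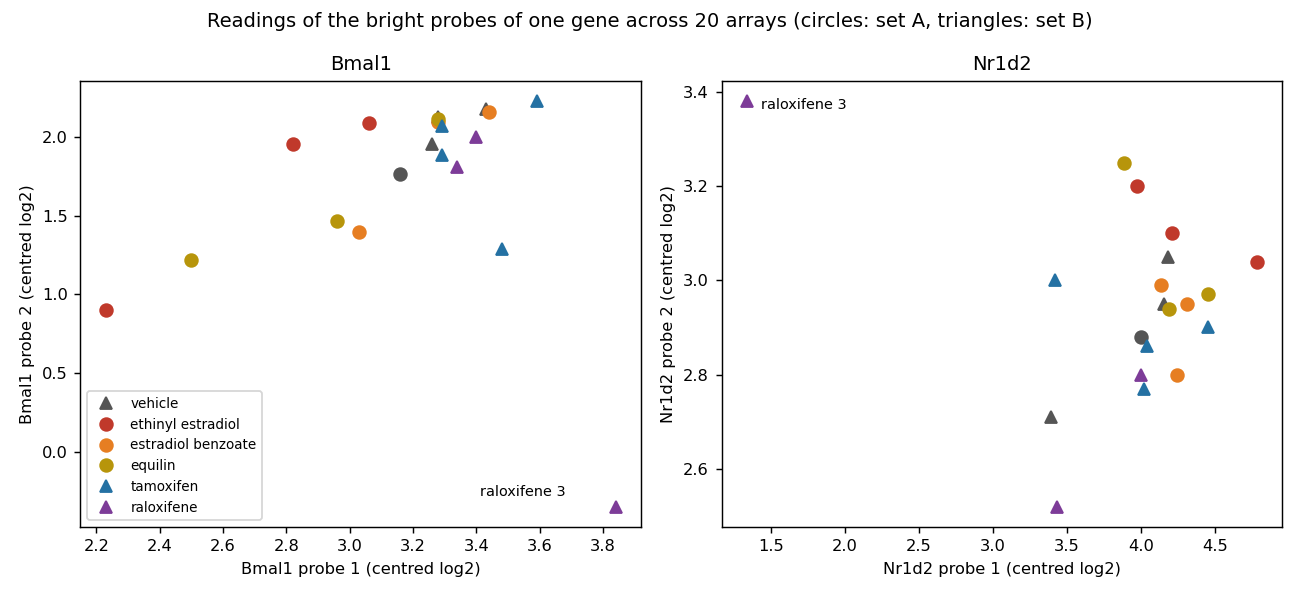
Centred log2 intensity of the brighter probe (x axis) against the second probe (y axis) of Bmal1 and of Nr1d2, each point 1 of 20 arrays, coloured by group; circles are set A and triangles set B. In both panels raloxifene array 3 lies apart, at opposite ends of the 2 axes.

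Dbp, the output factor, read 5.57, 5.98, 9.09 and 9.74 in vehicle, 9.00, 6.10 and 8.02 with ethinyl estradiol, 7.09, 6.62 and 9.26 with estradiol benzoate and 3.55, 6.46 and 10.1 with equilin. It read 5.81, 6.33, 10.1 and 6.47 with tamoxifen and 6.10, 7.54 and 3.22 with raloxifene. All groups overlapped, and the equilin group alone spanned nearly the whole range of the 20 arrays. The changes ran from -0.46 with raloxifene, or -0.11 without raloxifene array 3, to 0.01 with ethinyl estradiol, and the adjusted p of the F-test was 0.742.

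At matched doses the compounds were compared in 4 pairs, and no clock probe passed in any of them. The estrogens differ in structure: ethinyl estradiol carries an ethynyl group that estradiol lacks, estradiol benzoate is an ester of estradiol, and equilin has an additional double bond in its ring system. The background was 0.281% for ethinyl estradiol minus estradiol benzoate, 0.175% for ethinyl estradiol minus equilin, 0% for equilin minus estradiol benzoate and 0.00407% for tamoxifen minus raloxifene. At an unadjusted p under 0.05 these pairs had 1, 2, 0 and 2 of the 13 clock probes, where 9.04%, 9.61%, 3.4% and 13.4% of all tested probes passed that level. Per2 was higher with ethinyl estradiol than with equilin by 1.89 on the log2 scale (95% confidence interval 0.73 to 3.05, limma adjusted p = 0.23), and Cry1 by 0.83 (0.17 to 1.49, adjusted p = 0.403). The Bmal1 difference of ethinyl estradiol from estradiol benzoate was -0.54 (-1.02 to -0.06, adjusted p = 0.472). Tamoxifen, a triphenylethylene, and raloxifene, a benzothiophene, differed by 0.81 for Per1 (0.22 to 1.39, adjusted p = 0.364), with 4 tamoxifen readings from 4.31 to 8.26 above 3 raloxifene readings from 2.91 to 4.21. Nr1d2 differed by 1.1 between them (adjusted p = 0.37), and by 0.27 without raloxifene array 3. These intervals leave room for differences of either small or large size, and the doses of estrogens and SERMs differ, so the classes were not compared with each other.

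The spread among rats of a group, as the residual SD of log2 intensity, was 0.35 at the median of the 13 clock probes against 0.33 over all tested probes. Per2 had the largest, 0.75, above 94.1% of all tested probes, followed by the second Bmal1 probe at 0.64 and the brighter Nr1d2 probe at 0.62. Dbp had 0.47, at the 77.8th percentile, and Cry1 0.40, at the 68.8th. Cry2 (0.24), Per3 (0.24) and the second Nr1d2 probe (0.20, at the 11.4th percentile) varied least. Taken by group, the SD of Per2 was 1.84 with equilin, where array 1 read 2.38, and 0.09 to 0.44 in the other groups. That of the second Bmal1 probe was 1.31 with raloxifene and 0.19 to 0.66 elsewhere. That of the brighter Nr1d2 probe was 1.4 with raloxifene and 0.09 to 0.42 elsewhere. Raloxifene array 3 gave the lowest reading of both these probes.

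Across the 20 arrays the brightest probes of the 10 genes gave 45 pairs, tested with permutations of the arrays, adjusted over the 45. By Pearson's r 7 pairs passed, and by Spearman's rho 4. The 2 cryptochromes moved most closely together: Cry1 and Cry2 had r = 0.87 and rho = 0.95, with adjusted permutation p of 0.00045 and 0.000225, and r = 0.84 without equilin arrays 2 and 3, which lay farthest from the median. Cry1 with Cry2 had r = 0.86 within set A (10 arrays, adjusted p = 0.0711) and 0.62 within set B (10 arrays, adjusted p = 0.373), and 0.70 for deviations from the group means (adjusted p = 0.0522). By rho this pair passed within groups (adjusted p = 0.0349) and within set A (adjusted p = 0.00585), and not within set B (adjusted p = 0.545). The unadjusted p of 1e-05 for this pair is the smallest the 100000 permutations can give.

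Cry2 and Bmal1 had r = 0.77 and rho = 0.85 (adjusted permutation p of 0.00165 for r), 0.67 without tamoxifen array 3 and raloxifene array 3, 0.50 within set A, 0.90 within set B and 0.61 within groups. By r it was the only pair that also passed within groups (adjusted p = 0.00765, and 0.027 by rho) and within a set (B, adjusted p = 0.0148, and 0.0756 by rho). Pairs with Bmal1 rest on its brighter probe, whose r with the second Bmal1 probe was -0.78 within set B. Likewise, pairs with Clock rest on its brighter probe, whose rho with the dimmer Clock probe was -0.11 over 20 arrays. Per3 and Clock had r = 0.75 and rho = 0.71 (adjusted p of 0.00165 for r), 0.65 without vehicle array 1 and raloxifene array 3, 0.66 within set A, 0.54 within set B and 0.80 within groups (adjusted p = 0.0574, and 0.0349 by rho). Cry1 and Bmal1 had r = 0.64 and rho = 0.79, with 0.31 in set A and 0.39 in set B. The others that passed were Per3 with Cry2 (r = 0.68, 0.01 in set A and 0.73 in set B), Cry2 with Nr1d2 (r = -0.63, -0.33 in set A and -0.59 in set B) and Nr1d2 with Dbp (r = 0.61, 0.67 in set A and 0.78 in set B), none of which passed by rho. For Nr1d2 with Dbp, r was 0.49 without vehicle array 3 and raloxifene array 3. For Cry2 with Nr1d2 it was -0.62 without tamoxifen array 3 and raloxifene array 3. By rho, set B gave -0.16 for Cry2 with Nr1d2 and 0.39 for Nr1d2 with Dbp, and set A gave -0.43 and 0.7. Set B holds raloxifene array 3, where the brighter Nr1d2 probe read 2.7 and the second its highest, 11.5. The r within set B was not taken without that array.

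**Figure D4:**
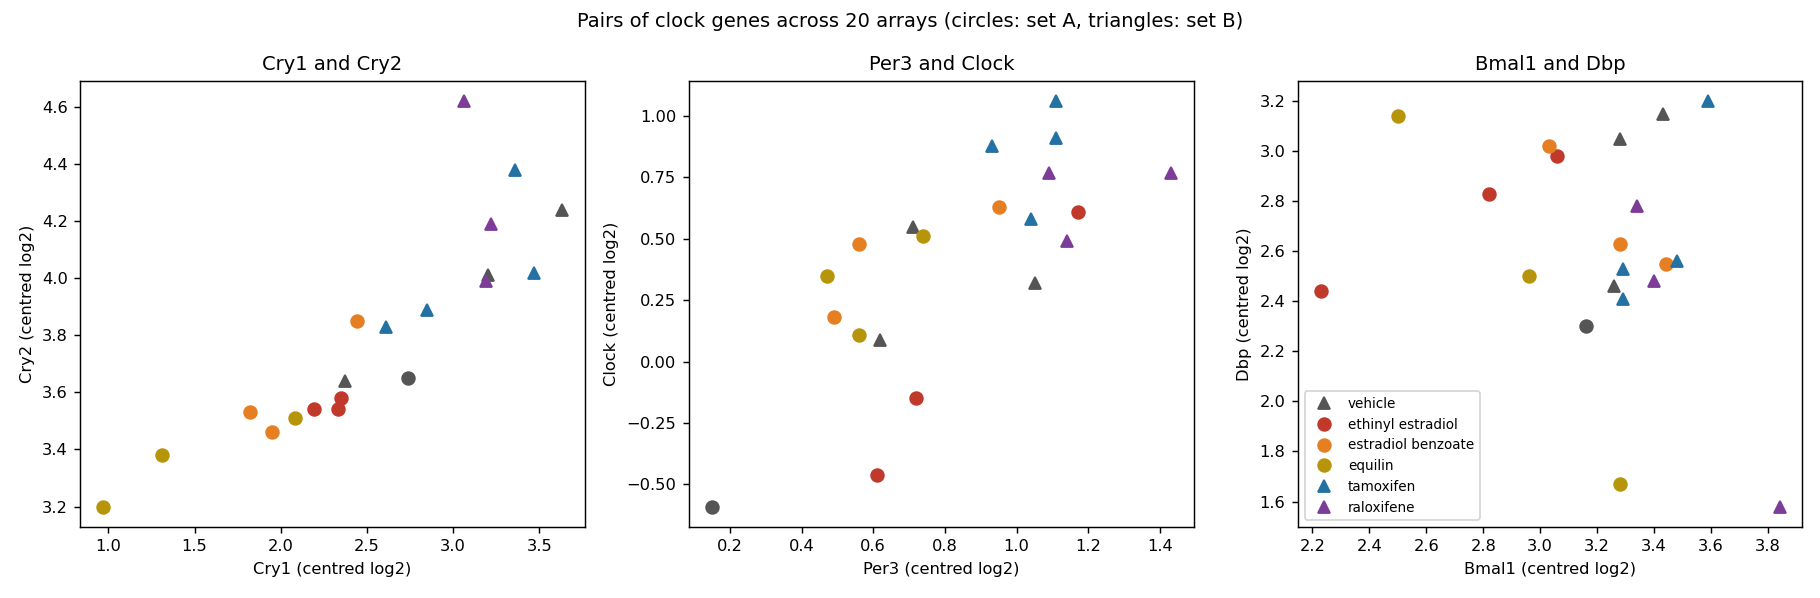
Centred log2 intensity of 3 pairs of clock genes in 20 arrays, coloured by group, with circles for set A and triangles for set B. Cry1 and Cry2 (r = 0.87) and Per3 with Clock (r = 0.75) run along a line, while Bmal1 and Dbp (r = -0.25) scatter.

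Bmal1 and Dbp, which peak at opposite times of day in rodent tissues, did not pass as a pair: r was -0.25 (permutation p = 0.279) and rho -0.02, with -0.32 in set A, -0.45 in set B and -0.29 within groups. The Dbp deviation from its mean over all arrays minus that of Bmal1 was taken for each rat as a description of where its tissue lay between these genes. It ran from -0.27 to 0.35 in vehicle, from -0.34 to 0.20 with tamoxifen, from -0.30 to 0.58 with estradiol benzoate and from 0.50 to 0.79 with ethinyl estradiol. By this score, which used the brighter Bmal1 probe, ethinyl estradiol was the only group whose arrays all lay above every vehicle array. The Bmal1 deviations of the ethinyl estradiol arrays were -0.13, -0.97 and -0.38, from the readings already given as below vehicle. Their Dbp deviations, 0.36, -0.18 and 0.22, lay within the vehicle range of -0.31 to 0.53. The scores of the equilin arrays were -1.02, 0.12 and 1.22, the widest span of the 6 groups. The raloxifene arrays gave -0.33, 0.03 and -1.67, the last being array 3. No score was taken from the second Bmal1 probe. That probe ran from 2.03 to 4.82 with ethinyl estradiol and from 3.81 to 4.93 in vehicle, so these groups overlapped. It read its lowest, 0.766, in raloxifene array 3, where the brighter probe was highest, so the score depends on the probe. Whether time of collection plays a part was not tested, since no label gives it.

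Named probes outside the clock set were ranked by the likeness of their pattern to Per2, Bmal1 and Dbp, as Pearson's r over 20 arrays among 13252 probes, given as a description. Most like Per2 were Nop14 (r = 0.95), Swsap1 (0.94), Car11 (0.93), Creld1 (0.88) and Mrm1 (0.86). All 5 were lowest in equilin array 1, as Per2 was: Nop14 read 0.494 there and 2.75 to 4.83 in the other arrays, and Car11 read 3.75 against 14.2 to 27.8. The 5 were chosen by their r with Per2 over these same arrays, equilin array 1 included. Low readings where Per2 was low therefore follow from the choice and are not a separate observation. Without equilin array 1 the correlations were 0.76, 0.74, 0.67, 0.59 and 0.57. The second lowest array for Per2, estradiol benzoate 1, lay below the median for all 5 as well.

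**Figure D5:**
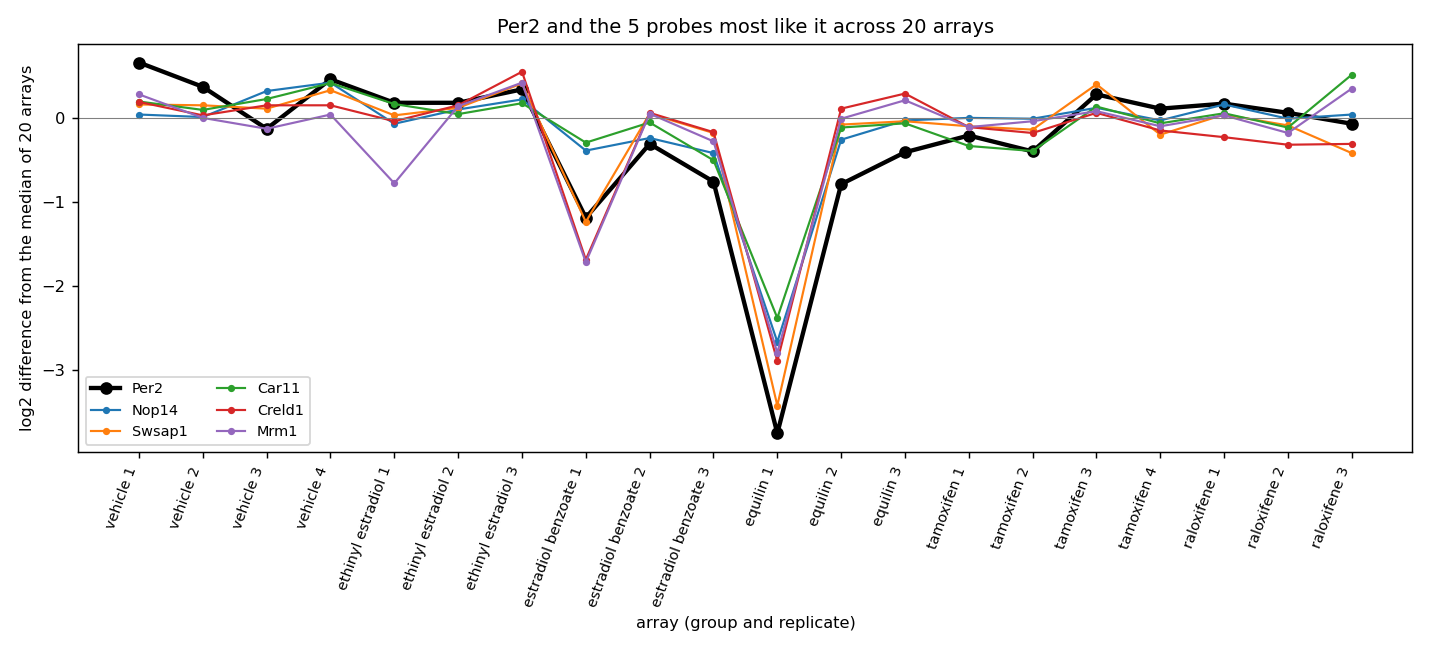
Log2 difference from the median of the 20 arrays (y axis) for Per2 (black) and the 5 named probes most like it, by array (x axis). All 6 lines drop in equilin array 1, where Nop14 read 0.494 and Per2 2.38. The 5 probes were chosen by their r with Per2 over these same arrays, so the shared drop follows from the choice.

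Most like Bmal1 were Tm9sf3 (r = 0.93), Tfr2 (0.88), Arl14ep (0.87), Snx29 (0.87) and Dzip1 (0.86), with r from 0.84 to 0.92 without raloxifene array 3. Most like Dbp were Acat1 (0.81), Ripor2 (0.77), Ipmk (0.77), Rnf139 (0.75) and Irak1bp1 (0.75), with r from 0.64 to 0.71 without that array. None of these was on the lists of other clock or clock output genes.

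Of 25 other genes of the clock loop and its regulators, 18 had a tested main probe. Timeless, which links the clock to replication in mammals, was the only one that passed, lower with equilin by a log2 change of -0.69 ± 0.18 (SE, limma adjusted p = 0.0453), 1 of 18 where 3.69% of all probes passed, and its F-test did not pass (adjusted p = 0.153). The median change of the 18 with equilin was -0.33, against -0.17 over all probes, with 14 lower and 4 higher. Of 17 clock output genes, among them Tef, Wee1, Nampt and Klf15, 12 were tested and none passed against vehicle for a single compound. Klf9, which encodes a transcription factor that also answers to glucocorticoids, passed the F-test (adjusted p = 0.0442), with changes of -0.71 with estradiol benzoate and -0.45 with equilin. It was 1 of 12, where 8.84% of all probes passed, and the call was lost with the array set as a block (adjusted p = 0.248). The output genes had a median change of -0.53 with estradiol benzoate (12 of 12 lower) against -0.12 over all probes, and of -0.43 with equilin (9 of 12 lower). Their summed intensity was 124 to 133 with estradiol benzoate and 139 to 153 with equilin, below the vehicle range of 168 to 211, and 176 to 242 with ethinyl estradiol.

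Genes that glucocorticoid hormones induce were set beside the clock genes because Per1, Per2 and Klf9 are among the known targets of these hormones. Of 12 listed genes 9 were tested, and 5 passed the F-test, Fkbp5, Sgk1, Errfi1, Cdkn1a and Dusp1, where 8.84% of all probes passed. With the array set as a block 2 of them passed, Fkbp5 and Dusp1 (adjusted p = 0.0416), and Sgk1 (0.408), Errfi1 (0.0773) and Cdkn1a (0.125) did not. Fkbp5, a chaperone of the glucocorticoid receptor, had changes of 0.58 with ethinyl estradiol, -1.25 with estradiol benzoate, -0.78 with equilin, 1.10 with tamoxifen and 0.09 with raloxifene (F-test adjusted p = 0.00103, and 0.0291 with the array set as a block). Dusp1, a phosphatase that damps kinase signalling, fell with equilin (-1.13, limma adjusted p = 0.032). Lcn2, an iron-binding secreted protein, fell with ethinyl estradiol (-0.73, adjusted p = 0.0484) and for the mean of the estrogens (adjusted p = 0.0348). The summed intensity of the 9 genes was 105 to 137 with equilin and 135 to 163 with estradiol benzoate, the groups with the lowest Per2, against 163 to 238 in vehicle, 177 to 188 with raloxifene, 214 to 254 with tamoxifen and 232 to 267 with ethinyl estradiol. The part of these hormones in the Per1 and Per2 readings was not tested.

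Genes of the immediate early response, which rise within minutes of handling or tissue injury, gave 11 tested of 12 listed. Jun, which encodes a subunit of the AP-1 transcription factor, passed the F-test (adjusted p = 0.039), with a change of -0.77 with equilin that did not pass (adjusted p = 0.0858). It was 1 of 11, where 8.84% of all probes passed, and the call was lost with the array set as a block (adjusted p = 0.517). The median change with equilin was -0.77, with 10 of 11 lower, and the summed intensity was 59.4 to 96.0 with equilin against 88.4 to 169 in vehicle. Their part in the equilin results for Cry1 and Per2 was not tested.

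The labelled tissue was checked against its markers. Of 7 tested smooth muscle markers 6 had mean intensities above the array median, with Acta2 below it, and so did 5 of 5 endothelial markers. Markers of other cell types were present as well, with 5 of 6 adipocyte, 4 of 4 macrophage, 3 of 3 nerve and glial, 6 of 7 pancreatic acinar, 4 of 6 mast cell and 3 of 4 lymphocyte markers above the array median, so the counts do not set artery apart from its surroundings.

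Some of these markers passed against vehicle with equilin, and some also with ethinyl estradiol or raloxifene, where no clock probe passed. With equilin, where Cry1 and Per2 fell, the mast cell markers Cpa3, a mast cell protease (-0.78, limma adjusted p = 0.0146), and Hdc, which makes histamine (-0.79, adjusted p = 0.0245), fell too, as they did with ethinyl estradiol (-0.73 and -0.99) and averaged over the 3 estrogens (-0.61 and -0.74). Taken over the 6 mast cell markers, log2 intensity averaged 0.73 to 1.1 with equilin and 1.32 to 1.5 in vehicle, without overlap, and their summed intensity was 16.3 to 24.3 and 22.6 to 31.0. Mcpt1, another mast cell protease, passed the F-test alone (adjusted p = 0.0467). These were 3 of 6 in the F-test, where 8.84% of all probes passed, and 0 with the array set as a block.

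Among other markers, Lmod1, of the smooth muscle contractile apparatus, rose with ethinyl estradiol (0.81, limma adjusted p = 0.0249), and its F-test passed with the array set as a block (adjusted p = 0.0188). It was 1 of 7 smooth muscle markers, where 1.2% of all probes passed with ethinyl estradiol, and 6 of the 7 were higher. Kdr, the endothelial receptor for VEGF, rose for the mean of the SERMs (0.70, adjusted p = 0.0464). It was 1 of 5 endothelial markers, where 0.574% of all probes passed, and 3 of the 5 were lower. Cd163, a macrophage scavenger receptor, rose with raloxifene (1.0, adjusted p = 0.0388). It was 1 of 4 macrophage markers, where 2.04% of all probes passed, and 2 of the 4 were lower. The summed intensity of these 4 was 94.1, 74 and 136 in raloxifene arrays 1 to 3. The adipocyte genes Fabp4 and Pparg passed the F-test alone (adjusted p of 0.0369 and 0.0398), with changes of -1.49 and -1.01 with raloxifene. They were 2 of 6 adipocyte markers, where 8.84% of all probes passed, and 4 of the 6 were lower with raloxifene. Log2 intensity of the 6 averaged 5.09, 5.18 and 4.64 in raloxifene arrays 1 to 3. With the array set as a block the F-test passed for none of Kdr, Cd163, Fabp4 and Pparg (adjusted p from 0.206 to 0.33).

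Summed intensities with equilin and in vehicle were 587 to 674 and 670 to 864 for smooth muscle, 170 to 208 and 195 to 240 for endothelium, 854 to 934 and 627 to 899 for adipocytes and 69.8 to 74.9 and 82.9 to 129 for macrophages. They were 7.95 to 12 and 6.70 to 19.1 for lymphocytes, 28.0 to 32.8 and 21.8 to 27.4 for nerve and glia and 6.68 to 10.4 and 9.85 to 116 for pancreatic acinar cells, whose sum reached 772 in an ethinyl estradiol array. The macrophage and the nerve and glial ranges did not overlap, nor did the mean log2 intensity of the endothelial markers (4.6 to 4.77 and 4.81 to 4.94). The part of other cell types in the readings of the clock genes was not tested.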

How the data were processed

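Per the labels, RNA of the dissected mesenteric arterial tree of each rat was hybridised to 1 single-colour array. The deposited values are linear intensities that the authors had scaled per array, with medians of 1.0007 to 1.0612 and 0.445% to 1.28% of values below 0. The submitters' processing notes name GenePix Pro 5.0, Acuity 3.1 and GeneSpring 7.1; the program that made the values and its background method are not stated in the texts at hand.

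Negative intensities were raised to 0, 0.103 (the median times 0.1) was added to every value, log2 was taken and each array was centred on its median. The offset understates the change of dim probes. Left out were 40 probes with over 1 missing array in a group and then the dimmest 30%, which left 24562. Of the 35129 probes, 16865 had 1 symbol, 165 several and 18099 none in the platform annotation. Of these, 1 symbol was updated. Group means of all 20 arrays were fitted with limma 3.58.1 in R 4.3.3 with a variance trend, and p-values were Benjamini-Hochberg adjusted over all tested probes with a threshold of 0.05. Errors of a log2 change are standard errors from that fit, and precision is limited by how few arrays a group has. Correlations used 100000 two-sided permutations of arrays, within groups for deviations from group means.

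The main probe of a gene was the brightest complete one. All clock probes are named; of the other clock, output, glucocorticoid and immediate early lists and of the cell type markers, every gene whose main probe passed against vehicle or in the F-test; and the 5 named probes most like Per2, Bmal1 and Dbp. The members, lists and tests were chosen with earlier results of these data known. The replicate numbers of the labels did not pair the rats, so no block was used. Scripts were tested on simulated data. Alternatives were another scaling, offset, filter, variance model, array weights, blocks, sets of arrays and families of probes.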

Additional observations from a re-analysis of the deposited data

How the results depend on the processing

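The calls for clock probes depended on the fit. Of the probe and compound combinations, 2 passed against vehicle; 1 passed after quantile normalisation, among probes with 1 symbol only, or with the replicate number as a block, 0 with the array set as a block or when only the groups compared were fitted, and 11 with array weights. For the class means 1 passed, and 2 with quantile normalisation, 4 with array weights and 0 with either block. In the matched pairs 0 passed, and 2 with array weights. In the F-test 2 passed, 1 without centring, without the filter or with the replicate block, 7 with array weights and 0 with the array set as a block. Leaving out each array gave 0 to 3, 0 to 2, 0 and 1 to 3 for these counts. Array weights also raised the calls over all 24562 tested probes, from 906 to 6861 with equilin and from 2171 to 10748 in the F-test. With tamoxifen these calls went from 55 to 3797 and with raloxifene from 502 to 4390. The clock counts under array weights are therefore not particular to the clock probes. With the array set as a block 0.0774% (raloxifene) to 0.647% (equilin) of all tested probes passed for single compounds.

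The Cry1 change with equilin, -1.53, was -1.29 with the array set as a block and did not pass when only the groups compared were fitted (adjusted p = 0.0704); it ran from -1.84 to -1.29 without single arrays. The Cry1 estrogen mean, -1.05, was -0.80 with array weights (adjusted p = 0.0518), -0.88 with the replicate block (0.072) and -0.81 with the array set as a block, and ran from -1.25 to -0.84 without single arrays. Per2 with equilin was -1.70 with quantile normalisation, -1.94 with the replicate block (adjusted p = 0.084), -2.31 with the array set as a block and -1.99 among probes with 1 symbol (0.0558) or among the groups compared (0.11), and ran from -2.61 to -0.94. The F-test adjusted p of Cry1 was 0.479 with the array set as a block and 0.00288 to 0.0283 without single arrays. That of Cry2 was 0.0636 without centring, 0.0602 without the filter, 0.0762 with the replicate block and 0.725 with the array set as a block, and 0.0303 to 0.117 without single arrays. None of these changes reversed its sign, and apart from fewer arrays or probes the cause of a lost call was not tested.

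Over all probes, the 906 calls with equilin became 536 with the lowest 50% left out, 259 among probes with 1 symbol, 6861 with array weights, 365 with the replicate block, 159 with the array set as a block and 130 among the groups compared, and 0 (without equilin array 2) to 3069 (without raloxifene array 3). The 640 of the estrogen mean became 323, 107, 1159, 421 and 167 under the first 5 of these, and 298 (without vehicle array 3) to 1379 (without raloxifene array 3). The 2171 of the F-test became 1068 among probes with 1 symbol, 10748 with array weights and 170 with the array set as a block, and 996 (without equilin array 3) to 3093 (without raloxifene array 3). Calls for the other compounds ran over the alternatives, and then without single arrays, from 9 to 378 and 74 to 743 for ethinyl estradiol (295 reported), 0 to 491 and 0 to 357 for estradiol benzoate (172), 26 to 3797 and 18 to 166 for tamoxifen (55) and 0 to 4390 and 5 to 3774 for raloxifene (502).

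The replicate numbers did not pair the rats: over 46 pairs of arrays with the same number in different groups, the correlation of deviations from group means ran from -0.43 to 0.30, with a median of 0.02, and 5 of 20 arrays correlated best with their own number. Groups of 3 or 4 arrays limit what can pass. The likeness and probe agreement values without equilin array 1 or raloxifene array 3 were chosen after seeing the data.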
